A study of Vanessa cardui with 14 samples.

Results

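A set of 73 genes of the painted lady butterfly, Vanessa cardui, had its peak in the hind wing 5 d after pupation, before any pigment was visible, out of 13876 assembled genes in the deposited table. A gene was a member when both 5 d libraries held at least 5 FPKM (mapped fragments scaled to the length of the gene and the size of the library) and the lower of them was at least 4 times the mean of each of the other 4 hind wing stages. The members were thus chosen by their measured FPKM at 5 d against the other hind wing stages, and their levels in hind wings are a description, with no test against 5 d. The members were examined in 14 libraries of 7 groups, with 2 libraries in each group. The whole hind wing was taken from last instar larvae, from pupae at 72 h and at 5 d, from pupae whose red and orange ommochromes had begun to appear, and from pupae whose black melanin had begun to appear. Red and black regions were cut from the forewing of pupae labelled melanin stage, although the dissection notes place that work at the ommochrome stage, so the age of the forewing samples is given here as labelled. All animals were reared under the same light cycle and temperature, with no treatment or genetic change named in the labels. The labels name neither the strain and sex nor the number of animals behind a library.

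Butterfly wings grow as discs inside the caterpillar and become a flat, two-sided epithelium in the pupa. Rows of epithelial cells then become scale and socket cells, and each scale cell pushes out a flattened projection and coats it with chitin-bearing cuticle. Pigment follows in an order set by colour, with ommochromes of red and orange scales appearing before melanin of black scales. A wing that is still unpigmented late in this sequence lies between the growth of the scales and their colouring. In RNA of a whole wing, fewer cells of a type and less RNA per cell cannot be told apart.

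Gene names are not part of the table, and the RefSeq gene table of the species matched 0 of its identifiers, so neither function nor sequence can be given for the members and no cell type marker could be looked up. In an identifier such as c27349_g2, c27349 is a component of the assembly and g2 a gene of that component. The summed FPKM of a library ranged from 482546 to 833658. The total number of reads is not known, so no counting interval can be given. Genes at 0 numbered 3641 in melanin hind wing replicate 1 and 1931 to 2707 in the remaining 13 libraries. The former enters several results below.

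Few genes met the rule, yet they took a large share of the 5 d wing. The 73 members held 22.1% of the summed FPKM in 5 d replicate 1 and 22.6% in replicate 2. In the larval hind wing they held 0.0445% and 0.0426%. At 72 h the libraries were far apart, at 0.0713% in replicate 1 and 1.54% in replicate 2. Of the members' 9912 FPKM in replicate 2, c22914_g1 held 5129 and c24056_g1 3825. The median member was at 1.16 FPKM in replicate 1 and 1.55 in replicate 2. The share of the 73 members was 0.526% and 1.08% in the ommochrome wings and 0.734% and 0.453% in the melanin wings. Forewing regions were close together, at 0.0733% and 0.0727% in red and 0.0803% and 0.0715% in black. The 5 d wings stood above every other library, and the later hind wings lay above all forewing regions. When the same rule was set to peak at another stage, it found 465 larval genes, 99 genes of 72 h, 4 ommochrome genes and 7 melanin genes. The larval genes held 15.6% and 16.3% of the larval libraries and those of 72 h held 17.4% and 16.9% of theirs. The set at 5 d was fewer in number than either and larger in share. It grew to 103 genes with median-of-ratios scaling and to 137 without 5 d replicate 2. The other sets were not counted under these settings, so the order in number against 72 h is not settled. The 4 ommochrome genes held 0.0126% and 0.0123% of their libraries and the 7 melanin genes 0.0711% and 0.0877%.

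**Figure D1:**
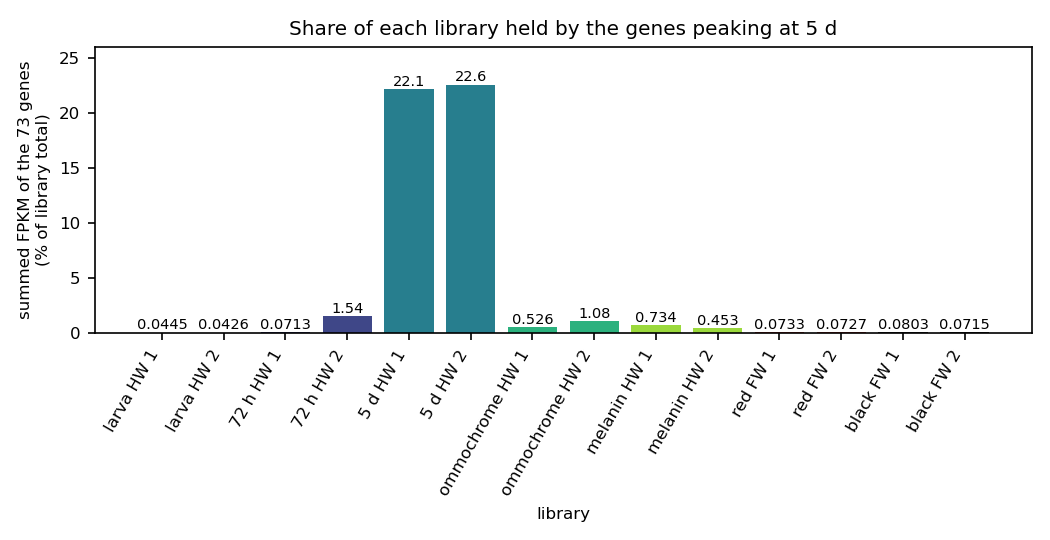
Share of the summed FPKM of each library that the 73 genes peaking at 5 d held, in percent, with 1 bar per library (HW hind wing, FW forewing). The 5 d hind wings reach 22.1% and 22.6%, and the next highest library is 72 h replicate 2 at 1.54%.

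A few very abundant transcripts made up most of that share. The 5 d mean of the members ran from 6.73 to 31467 FPKM with a median of 160.6 FPKM. There were 3 members at 10000 FPKM or more, 9 from 1000 to under 10000, 33 from 100 to under 1000, 22 from 10 to under 100 and 6 under 10. The top 3 held 71.5% of the members' FPKM in 5 d replicate 1 and 64.2% in replicate 2.

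The most abundant member was c19797_g1, at 35026 and 27908 FPKM in the 5 d libraries. It held 5.66 and 8.1 FPKM in the larva and 6.53 and 17.8 at 72 h. Its level was 1125 and 2491 FPKM at the ommochrome stage and 1471 and 584.9 at the melanin stage. In forewings it held 9.15 and 10.3 FPKM in red and 1.43 and 7.13 in black regions. The transcript was thus low before 5 d, still abundant in pigmenting hind wings and low again in the forewing regions, and its ommochrome mean was the highest of any member.

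The next in abundance was c27349_g2, at 28779 and 31843 FPKM at 5 d. It held 3.27 and 4.43 FPKM in the larva, and 3.13 and 27.3 at 72 h. After the peak it was at 22.4 and 84 FPKM in the ommochrome wings and at 203.2 and 17.6 in the melanin wings. No forewing library held more than 0.49 FPKM. Both 5 d libraries lay far above all others, and melanin replicate 1 was the highest of the rest.

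The third transcript of this size, c22914_g1, was at 35160 and 23357 FPKM at 5 d. It was the member with the highest means at 72 h and at the melanin stage. The 72 h libraries held 6.24 and 5129 FPKM, and the melanin libraries 1455 and 1292. It held 5.52 and 7.91 FPKM in the larva, 1106 and 1833 at the ommochrome stage, 31 and 8.91 in red and 10.5 and 18.4 in black regions. The 72 h mean rests on replicate 2, while the pigment stages were high in both libraries.

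**Figure D2:**
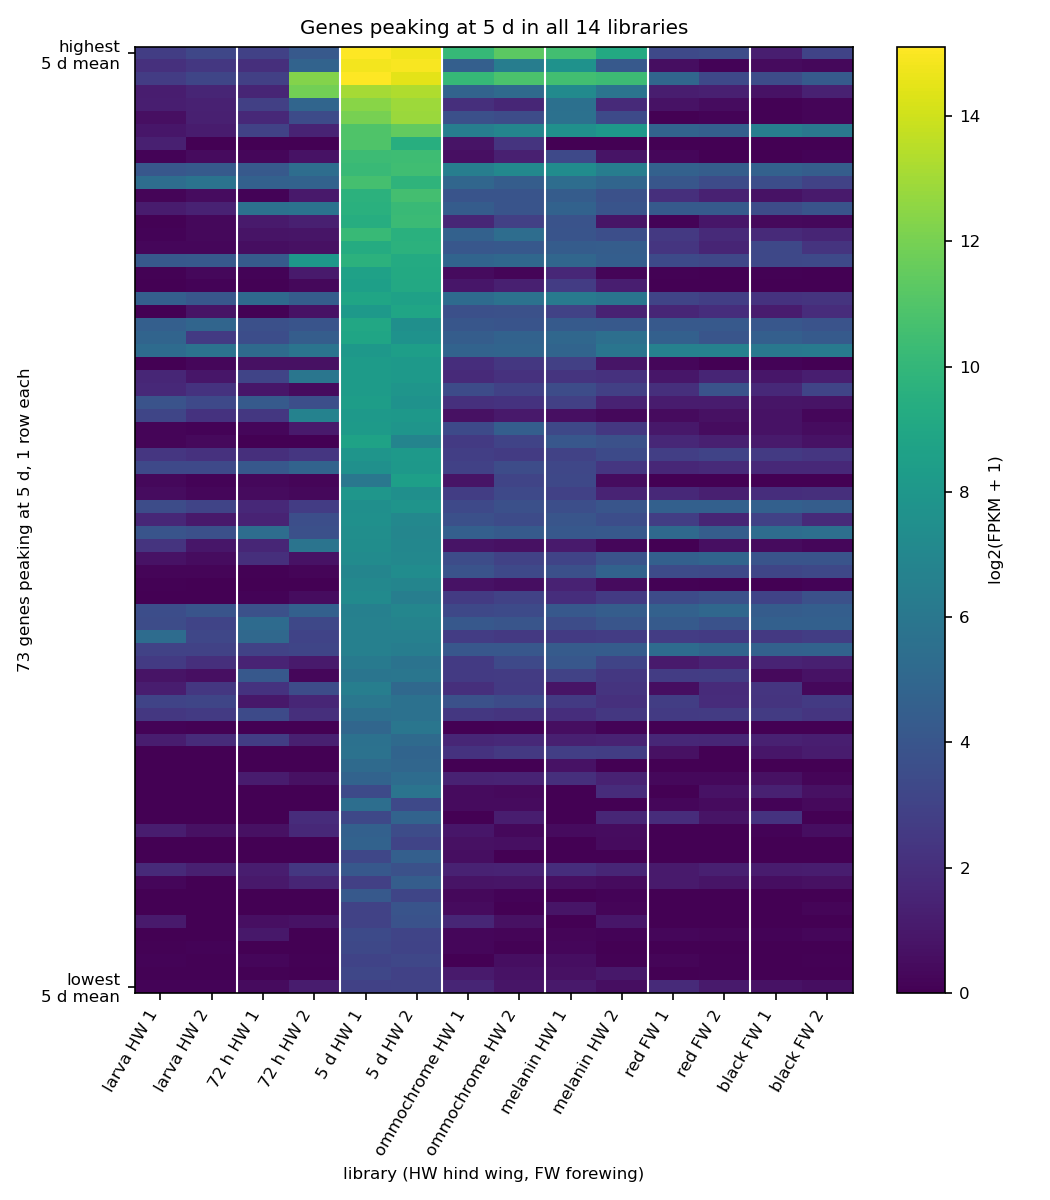
Levels of the 73 members, 1 row each, in the 14 libraries as log2(FPKM + 1), ordered by the 5 d mean from 31467 FPKM at the top to 6.73 FPKM at the bottom. The 5 d columns are the brightest in each row. In the 3 members at 10000 FPKM or more, every ommochrome and melanin hind wing library lies above every forewing library.

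The sharpest peaks, measured as the lower 5 d value over the highest mean of another hind wing stage, were those of c21820_g2 and c27349_g3. Gene c21820_g2 was at 404.4 and 582 FPKM at 5 d, at most 1.15 FPKM in the other hind wing libraries except melanin replicate 1 at 2.19, and at most 0.07 FPKM in forewings. Its ratio was 344. Gene c27349_g3 was at 1979 and 711 FPKM at 5 d, at 1.47 in larval replicate 1, at 0.74 and 3.85 in the ommochrome wings, and listed at 0 in each of the other 9 libraries. Its ratio was 310, and its 5 d libraries differed from each other more than 2 times.

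Across members the peak was narrow for some and broad for others. The highest mean of another hind wing stage was under 1% of the 5 d mean for 11 members, 1% to under 10% for 37, and 10% or more for 25, with a median of 6.43%. The 2 members nearest inside the limit were c28178_g3, with a ratio of 4.02, and c26129_g1, with a ratio of 4.16. Gene c28178_g3 held 94.9 and 94.1 FPKM at 5 d against 38.7 and 8.22 in the larva. The 2 genes nearest outside were c21641_g1 at 3.94 and c24058_g2 at 3.81, the latter with 685.6 and 1362 FPKM at 5 d. In all, 15 members had a ratio from 4 to under 5, and 31 genes with at least 5 FPKM in both 5 d libraries had a ratio from 3 to under 4. The size of the set depended on the 5 d libraries, since with replicate 1 alone 137 genes met the rule. All 73 members are among them by construction, because the rule takes the lower 5 d library.

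Neither 5 d library was the higher throughout. Replicate 1 was the higher for 39 members and replicate 2 for 34, where 68.3% and 27% of the tested genes did so. The 2 libraries lay within 2 times of each other for 58 members. The widest gap with replicate 1 higher was that of c22263_g1, at 43.6 and 9 FPKM. With replicate 2 higher, it was that of c19796_g1, at 63 and 372.5 FPKM, followed by c20714_g1, at 9.38 and 55.3 FPKM. These 3 were named after their values were seen. The lower 5 d value of each of the 73 members lay above all 12 other libraries, forewings included, where 2.83% of the genes tested did so. Against the 4 forewing libraries alone it held for 73 members and for 24.9% of the tested genes. The rule chose the members for high 5 d values, so nothing is read from either count.

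Members differed in what they did before and after the peak. With a mean of 1 FPKM as the limit for a gene being present at a stage, 32 members were absent from both larval and 72 h wings and 41 were present in at least 1 of them. After 5 d, 58 were present at the ommochrome or melanin stage and 15 were absent from both. The largest class, with 37 members, was present both before and after, at a median 5 d mean of 270.9 FPKM. A further 21 were absent before and present after, at a median of 264.3 FPKM. There were 11 members absent both before and after, at a median of 12.8 FPKM, and 4 present before and absent after, at a median of 81.9 FPKM. The latter were c23205_g5, c16649_g1, c24682_g7 and c26901_g1, named after their values were seen. The class seen at 5 d alone held low transcripts, with 5 d means of 7.41 to 45.8 FPKM. Under a fixed limit of 1 FPKM a low transcript is more readily counted absent, so this link is not read as a result. In 7 members all 4 larval and 72 h libraries were at 0.

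The next highest hind wing stage was melanin for 32 members, 72 h for 21, ommochrome for 17 and larva for 3, which were c27266_g1, c27266_g5 and c28178_g3. Without melanin replicate 1 the count for melanin was 20, and without 72 h replicate 2 the count for 72 h was 12, so the order rests on those libraries. The larval level was highest for c27266_g1, at 41.4 and 52.5 FPKM, against 24.6 and 26.2 at 72 h and 1574 and 896.3 at 5 d. It stayed at 20.9 to 40.6 FPKM in the pigment-stage hind wings and at 6.97 to 15.7 FPKM in forewings, so that every library held some of this transcript.

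**Figure D3:**
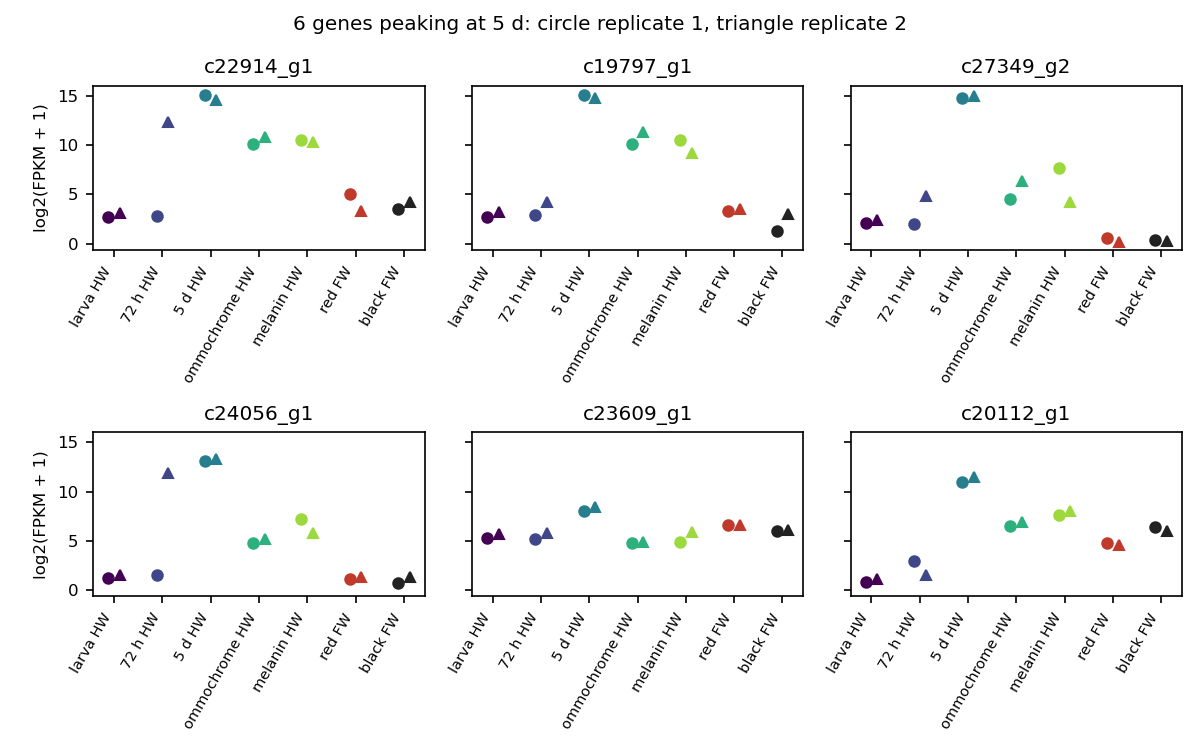
Levels of 6 members in the 7 groups as log2(FPKM + 1), with circles for replicate 1 and triangles for replicate 2 (HW hind wing, FW forewing). Genes c22914_g1 and c24056_g1 are near their larval level in 72 h replicate 1 and at 5129 and 3825 FPKM in replicate 2, while c23609_g1 and c20112_g1 keep clear levels in forewings.

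At 72 h the 2 libraries gave different pictures of the members. Replicate 2 held at least 1 FPKM and at least 4 times replicate 1 for 15 members (20.5%), where 5.82% of the tested genes did so, and replicate 1 exceeded replicate 2 in this way for 4 members, where 6.38% did so. This limit was chosen after the data were seen. The rule caps the 72 h mean and not each library, and the median member was at 1.16 and 1.55 FPKM there. These shares are therefore not read against those of all genes. The widest gap was that of c24056_g1, at 1.98 FPKM in replicate 1 and 3825 in replicate 2, the latter being 40.6% of its 5 d mean. Gene c23205_g5 was at 4.52 and 103.6 FPKM, and c16649_g1 at 2.08 and 55.9 FPKM. In 8 of the 15 members, these 3 and c22914_g1 included, replicate 2 was at 10% or more of the 5 d mean. The opposite order was clearest in c12731_g1, at 17.1 FPKM in replicate 1 and 0.18 in replicate 2, against 58.6 and 60.9 at 5 d. The other members of that order were c26129_g1, c26276_g1 and c28178_g3.

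The melanin libraries differed in a like way. The rule caps this stage mean too, so the shares that follow are not read against those of all genes. Replicate 1 held at least 1 FPKM and at least 4 times replicate 2 for 11 members (15.1%), where 3.27% of the tested genes did so, and the reverse held for 3 members (c25805_g2, c20714_g1 and c12320_g2), where 3.51% did so. The 11 included c18114_g1, at 5473 and 7734 FPKM at 5 d and at 46.5 and 2.46 in the melanin libraries, and c17159_g1, at 1292 and 1385 FPKM at 5 d and at 8.97 and 0.71 in the melanin libraries. In both genes the ommochrome libraries stayed at 0.53 to 3.14 FPKM, below melanin replicate 1. Expressed against the 5 d mean, melanin replicate 1 was at 0.704% for c18114_g1, at 0.67% for c17159_g1 and at 0.67% for c27349_g2. Over the 11 members it ranged from 0.444% to 3.98%, with a median of 0.839% and 8 of them under 1.5%. This library also had the most genes at 0, and what part that plays in these levels was not tested.

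**Figure D4:**
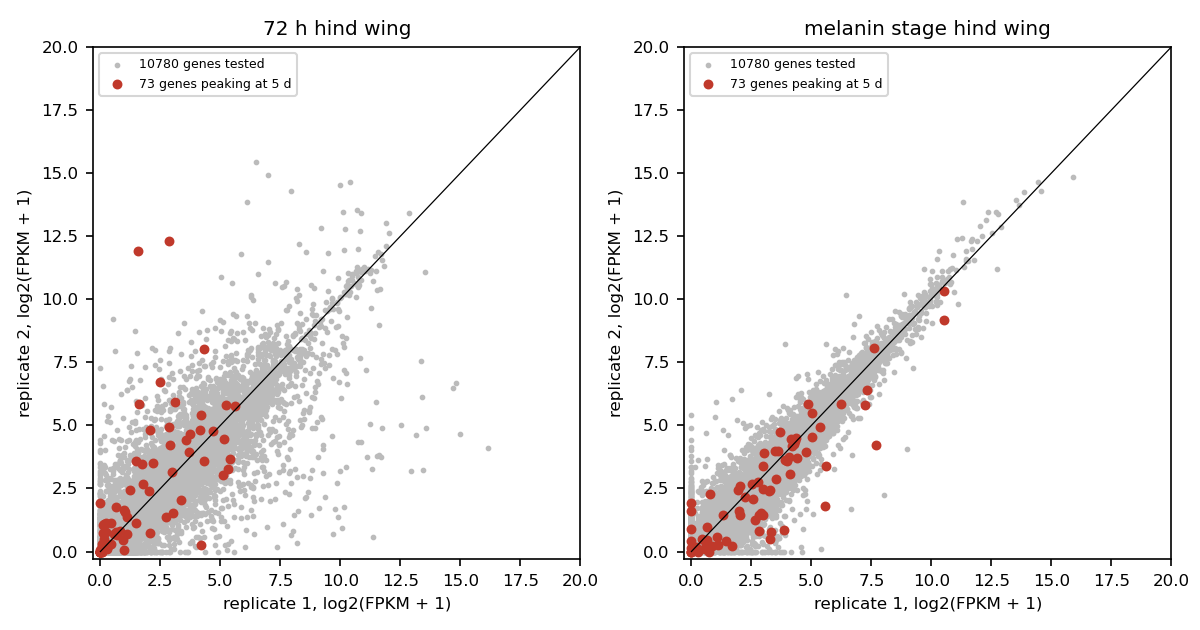
Replicate 2 against replicate 1 as log2(FPKM + 1) for the 72 h and the melanin hind wings, with the 10780 tested genes in grey, the 73 members in red and the line of equality. At 72 h, 15 members reach at least 1 FPKM in replicate 2 and at least 4 times replicate 1. Of these, c22914_g1 and c24056_g1 lie the farthest from the line. At the melanin stage, 11 members reach at least 1 FPKM in replicate 1 and at least 4 times replicate 2.

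For the step from larva to 72 h, the rule caps both stage means and does not use their difference. By limma, with p-values adjusted over the 10780 genes, 6 members rose and 2 fell, together 11% of the 73, where 52.2% of all tested genes changed, 7.71% higher and 44.5% lower. The median log2 change of the members on the log2(FPKM + 1) scale was 0.28, and that of all tested genes -0.73. Both stages were under 1 FPKM on average for 32 members, which leaves little room for a change on this scale, and the members were tested through their 5 d values. Their share of calls is therefore not read against that of all genes. With median-of-ratios scaling 14 members were higher and 1 lower, with 3229 of all tested genes called, and with quantile normalization 14 and 1, with 3499 called. Gene c26503_g1 was at 1.19 and 1.77 FPKM in the larva and 48.3 and 52.9 at 72 h, with no overlap. It rose by 4.39 log2 (SE 0.33, limma adjusted p = 6.81e-06) and was at 779.2 and 1210 FPKM at 5 d. Gene c28322_g2 was at 2.02 and 0.92 FPKM in the larva and at 7.58 and 60.6 at 72 h. It rose by 3.26 log2 (SE 0.702, limma adjusted p = 0.00336), by 4.68 without 72 h replicate 1 and by 1.83 without 72 h replicate 2. The other 4 called members were higher at 72 h by 0.91 to 1.25 log2.

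Of the members that were lower at 72 h, c22143_g1 went from 7.07 and 7.92 FPKM to 0.97 and 2.11. Its log2 change was -1.78 (SE 0.335, limma adjusted p = 0.00158), and it was at 62.6 and 47.8 FPKM at 5 d. Gene c27819_g2 went from 10.4 and 7.56 FPKM to 2.4 and 5.42, with a log2 change of -1.08 (SE 0.311, limma adjusted p = 0.0149), against -0.73 for the median gene. Its call was lost without larval replicate 1 or 72 h replicate 1, and with median-of-ratios scaling, equal FPKM totals or quantile normalization. The count of 8 called members moved when any single larval or 72 h library was left out. Such a fit leaves 1 library in a stage, so the count is not settled.

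From the ommochrome to the melanin stage, also capped alike by the rule, limma called 0 of the 73 members. Of all tested genes 0.25% were called, so few that a count of 0 says nothing particular to the members. At an unadjusted p under 0.05 there were 8 members, 3 higher and 5 lower at the melanin stage, where 8.74% of all tested genes passed, 5.81% higher and 2.93% lower. Gene c17159_g1 differed between its melanin libraries, at 8.97 and 0.71 FPKM, against 0.53 and 1.54 FPKM at the ommochrome stage. The median log2 change was 0.11 for the members and 0.06 for all tested genes.

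The forewing libraries took no part in choosing the members. Relative to the 5 d hind wing, the mean of the 4 forewing libraries had a median of 0.951% over the members. It was under 1% for 38 of them and 10% or more for 10. The rule chose the members for high 5 d values, so low percentages are partly built in and nothing is read from them. In 28 members every forewing library was under 1 FPKM, 6 of these being listed at 0 in all 4. In 33 members every forewing library held at least 1 FPKM, and 12 members were mixed. Wing, region and possibly age change together between these samples, so they cannot be told apart.

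The highest forewing level belonged to c23609_g1, at 97.3 and 98.1 FPKM in red and 65.1 and 69.6 in black regions. It was at 262.2 and 350.9 FPKM at 5 d, and at 26.9 to 57.3 in the other 8 hind wing libraries. Forewing values thus lay between the 5 d level and the rest, with no overlap with either. The next was c20112_g1, at 27.4 and 23 FPKM in red and 86.4 and 63.4 in black regions, against 1996 and 2793 at 5 d. Unlike c23609_g1 it was lower in forewings than in the ommochrome wings, at 87.5 and 115.8 FPKM, and the melanin wings, at 192.5 and 267.2 FPKM. Before 5 d it was low, at 0.85 and 1.22 FPKM in the larva and 7.03 and 1.88 at 72 h. It was among the members called higher at 72 h, by 1.25 log2 (SE 0.428, limma adjusted p = 0.0325).

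All 4 forewing libraries lay below all 4 ommochrome and melanin hind wing libraries for 31 members (42.5%), where 24.6% of the tested genes did so. They lay above them for 5 members (6.85%), where 11.9% did so. The hind wing side of this count is capped by the rule, and no test was made. The 5 members were c23609_g1, c26225_g1, c26276_g1, c26281_g1 and c27819_g2, named after their values were seen. The highest forewing level relative to 5 d was that of c26225_g1, at 33.2%. It held 37.8 and 28.4 FPKM in red and 25.1 and 26.3 in black regions, against 16.1 to 19.8 in the pigment-stage hind wings. Gene c26281_g1 was listed at 0 in both larval libraries and held 7.16 to 12.6 FPKM in forewings, against 3.01 to 6.9 in the pigment-stage hind wings.

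**Figure D5:**
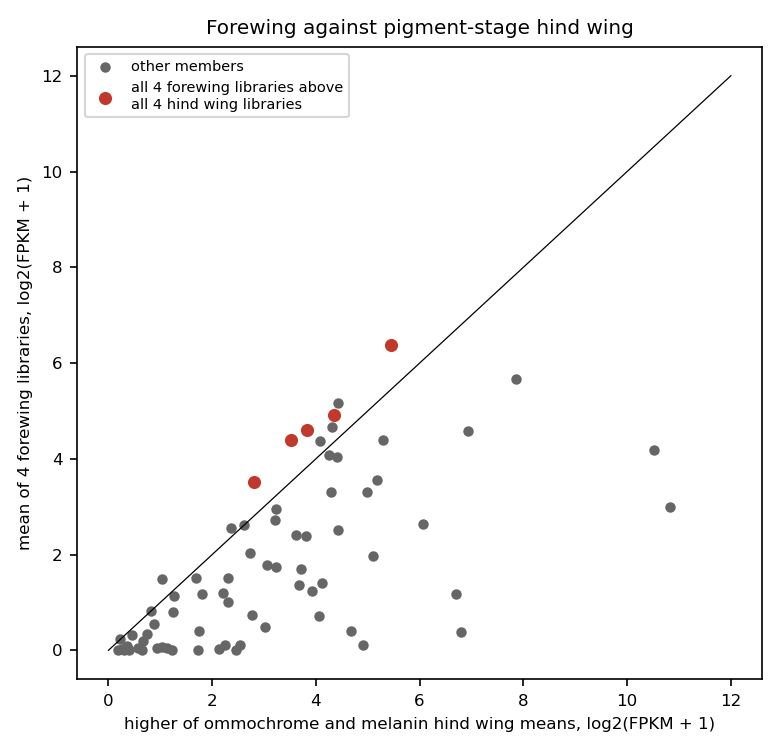
Mean of the 4 forewing libraries against the higher of the ommochrome and melanin hind wing means, both as log2(FPKM + 1), with 1 point per member and the line of equality. Most points lie below the line, and the 5 red points are the members whose 4 forewing libraries all exceed the 4 hind wing libraries.

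Between black and red forewing regions, whose libraries the rule did not use, limma called 0 of the 73 members. Of all tested genes 0.751% were called, and the 28 members under 1 FPKM in every forewing library had little room to differ, so this count says nothing particular to the members. At an unadjusted p under 0.05 there were 6 members, of which 3 were higher in each region, where 4.15% of all tested genes passed, 1.06% toward black and 3.09% toward red. The median log2 difference, black minus red, was -0.04 for the members and -0.15 for all tested genes. The member with the smallest unadjusted p was c20112_g1, with a log2 difference of 1.52 (SE 0.428, limma adjusted p = 0.351) and no overlap between regions. The difference of c12731_g1 was the other way, at 5.53 and 5.77 FPKM in red and 0.29 and 0.69 in black (log2 difference -2.17, SE 0.914, limma adjusted p = 1). Both genes were picked out after the values were seen.

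The members came from 71 assembled components. A component was shared with at least 1 other gene by 22 members (30.1%), against 35% of the tested genes, and for these reads may be divided between similar sequences. The components c27349 and c27266 held 2 members each. Genes of c27349 had different profiles. Besides c27349_g2 and c27349_g3, c27349_g1 had its highest mean at 72 h, at 68.9 and 14852 FPKM, against 101.1 and 168.1 at 5 d and at most 2.37 in every other library. That mean rests on 72 h replicate 2, and replicate 1 lay below both 5 d libraries. Gene c27349_g4 was highest in the larva, at 10.5 and 10.3 FPKM, and held 2.87 to 5.81 in all later libraries. In c27266, the second member c27266_g5 was at 534.8 and 182 FPKM at 5 d and at 12 to 29.7 in the other 12 libraries, so that both members of the component were higher in 5 d replicate 1. There were 25 tested genes that shared a component with a member without being one. Of these, 6 (24%) had their highest hind wing mean at 5 d, against 6.51% of all tested genes, members included. For 11 of the 25 it was in the larva, against 57.3% of all tested genes.

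The genes outside the set with the profile most like the median member, by Pearson correlation of log2(FPKM + 1) over the 7 group means, were c21690_g1 at 0.992 and c18205_g1 at 0.988. Both fell short of the 5 FPKM minimum. The lower 5 d value over the highest mean of another hind wing stage was 2.36 for c21690_g1 and 7.27 for c18205_g1. The former thus also missed the fold limit of the rule, while the latter met it. Gene c21690_g1 held 11.6 and 2.21 FPKM at 5 d and at most 1.24 in the other libraries, and c18205_g1 held 1.88 and 1.78 FPKM at 5 d and at most 0.26 elsewhere. These correlations rest on 7 means that include the 5 d group used to choose the members.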

How the data were processed

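Polyadenylated RNA of butterfly wings was sequenced as paired-end reads, per the labels' protocols. The submitters' processing notes name Bowtie, without a version, and the series title a de novo transcriptome. The sources used here name no assembler, counting program, filter or further scaling. The authors deposited FPKM values, 1 column per library. Since FPKM share a library total, abundant genes that rise push down the values of others. All columns were matched to samples by name.

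The members, limits and comparisons were chosen with earlier results of these data known. Values were tested as log2(FPKM + 1), which understates changes of low genes, for the 10780 genes that reached 1 FPKM in 2 or more libraries. All 73 members passed this filter, if only by their 5 d values. A model of 7 group means over 14 libraries was fitted with limma 3.58.1 in R 4.3.3 (7 residual and 2.88 prior degrees of freedom), with two-sided tests adjusted by Benjamini-Hochberg over all tested genes and called at 0.05. The code was tested on simulated data. Nothing in the labels says that libraries came from separate animals, so p-values measure only how these samples vary, and that may be technical variation. Genes were named by rule: the highest at 5 d, in each other hind wing stage and in forewings, the sharpest peaks, those nearest the limit, the largest called changes, the components with most members and the most similar profiles. Others were named after their values were seen, whether or not this is said beside them. Tables and figures used Python 3.11.15, pandas 2.3.3, NumPy 2.4.6 and matplotlib 3.10.9.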

Additional observations from a re-analysis of the deposited data

How the results depend on the processing

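The count of members called from larva to 72 h was 15 with a pseudocount of 0.1, with median-of-ratios scaling or with quantile normalization, 5 with a pseudocount of 5, and 3 to 16 with a single library left out. In fits that kept both libraries of each group, 0 members were called between black and red regions and from ommochrome to melanin. With the 4 forewing libraries alone, 0 of all tested genes were called, so no member could be. The other such fits called 36 to 100 of all tested genes between regions and 13 to 48 from ommochrome to melanin. So few calls say nothing particular to the members. Leaving a library out leaves 1 in its group, and those counts are not read. The number of members was 70 to 137 with a hind wing library left out and 54 to 104 under the other alternatives, with 55 when the higher library of each other stage was used and 103 with median-of-ratios scaling. The median forewing level was 0.865% of the 5 d level with median-of-ratios scaling, 0.872% with equal FPKM totals and 0.982% to 1.22% with a library left out. Alternatives added after the data were seen gave 12 members with 72 h as the next highest stage without 72 h replicate 2, and 20 with melanin without melanin replicate 1. The changes of c26503_g1, c28322_g2 and c22143_g1 kept their direction and call under all 13 alternatives, and c27819_g2 under 8. The cause of these shifts was not tested. The deviations of same-numbered libraries had a correlation of 0.431 between black and red regions, 0.0174 between larva and 72 h and -0.0787 between ommochrome and melanin. The reason for the first value was not tested. The labels do not state that the forewing libraries are paired, and 2 pairs cannot settle it. In fits with a replicate block the counts of members called were 0, 8 and 0 in these comparisons, with 71, 5605 and 20 of all tested genes called. With 2 libraries per group and unknown depth, small differences among low members could not be resolved.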
